A study of Mus musculus with 41 samples.

Results

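Mlkl, Ripk3, Ripk1, Casp8, Gsdmd, Casp1, Nlrp3, Pycard, Il18 and Il1b are 10 mouse genes of necroptosis and inflammasome signalling. They were taken as a named list, by gene symbol, and all 10 were found among the 24511 genes of the expression table. All 10 also passed the filter on low values, which kept the 12337 genes with a mean log2 value of at least 3 for the tests. Every liver and tumour of a Mup genotype had a higher Mlkl value than any other liver. Casp1 and Pycard rose in tumours of all 3 Mup genotypes, against steatohepatitis livers in MupHe and IgAkMup and healthy livers in CD8kMup. The Casp1 rises passed the test under every alternative run, and each Pycard rise failed it under some of them. In the same steps Il18 fell in tumours of MupHe and IgAkMup but not detectably in those of CD8kMup. Set against healthy livers of the same genotype, the Il18 change in CD8kMup tumours did not differ by test from that in MupHe tumours. It differed from that in IgAkMup tumours, in a comparison added after the values had been seen.

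Necroptosis is a lytic form of cell death that releases the contents of the cell. The kinase RIPK1 can engage the kinase RIPK3, which phosphorylates MLKL, and MLKL then breaks the plasma membrane. Caspase-8 cleaves both kinases and thereby holds the pathway back, besides starting apoptosis. An inflammasome is a complex in which a sensor such as NLRP3 gathers the adaptor ASC, the product of Pycard, and caspase-1. Active caspase-1 cleaves the precursors of the cytokines encoded by Il1b and Il18, and it cleaves gasdermin D, the product of Gsdmd, whose fragment forms pores in the membrane. In liver these genes are studied in the death of hepatocytes and in the response of macrophages to lipid and to dying cells.

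Expression was measured by RNA-seq of polyA RNA from liver and liver tumours of male C57BL/6 mice. The tumour groups (HCC, hepatocellular carcinoma) were MupHe, IgAkMup and CD8kMup, the NASH groups (steatohepatitis) were MupHe and IgAkMup, and the HFD control groups were IgAkCLM and B6, all on a high-fat diet (HFD). The labels call the HFD control livers healthy and fatty. The 4 NC groups, MupHe, IgAkMup, CD8kMup and B6, were healthy livers by their labels, which do not spell out NC. There were 35 libraries in 11 groups, 4 in each of IgAkMup HCC and MupHe HCC and 3 in every other group. The labels explain no genotype name, name no promoter or cell type for any allele, give no age and do not say whether libraries came from separate mice. Every p-value therefore measures the spread between these samples only. Each group with NASH or HCC has a genotype name that holds Mup and no HFD control group has one, so stage and Mup genotype cannot be told apart between NASH and HFD control livers. The CD8kMup NASH and CD8kCLM HFD control groups were not analysed here.

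The values are regularized log2 (rlog) values as deposited, so a difference of 1 is a 2-fold change, and they can be compared between libraries but not between genes. Differences are given with their standard error, and adjusted p-values are from limma (Benjamini-Hochberg, two-sided, called at 0.05 or below) over the 12337 genes kept. Shares of kept genes whose groups did not overlap were counted only for Mup genotypes against other livers and tumours against all other libraries. Elsewhere a lack of overlap is given without such a share. The depth behind each value is unknown. All 8 hepatocyte markers, Alb and Apoa1 among them, passed the filter, and their mean stood between 13.62 and 15.49 in every library. The names of the columns hold tags whose meaning the labels leave unexplained, which are Tri NC for NC, SS N for B6 HFD control and IgAkMup NASH, Tri N for IgAkCLM HFD control and MupHe NASH, and SS H for HCC. On the second principal component (12.6% of the variance), 3 tumours stood off from the rest, which were MupHe HCC 3 and, of IgAkMup HCC, libraries 5 and 9. No tumour has the tag of an NC or HFD control liver, so stage and tag cannot be told apart in those steps. From NASH to HCC, MupHe goes from Tri N to SS H and IgAkMup from SS N to SS H. Where the MupHe and IgAkMup steps are compared, genotype and tag therefore cannot be told apart. In bulk tissue, fewer cells of a type and less RNA per cell cannot be told apart. Reads shared with overlapping genes are possible for Mlkl, Ripk1, Casp8, Pycard, Il18 (Bco2 and Tex12 on the other strand) and Il1b (its antisense gene Il1bos), since no label or header states whether counting used the strand.

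The genes on which the results turn are shown by the 250 bases ahead of their RefSeq start. The entries are from RefSeq's GRCm38.p6 assembly, are written 5′ to 3′ on the strand of the gene, and hold no transcribed base by that annotation. Capitals mark matches to the motifs named after the sequences. Mlkl lies on chromosome 8 (window chr8:111338206-111338455, minus strand), and Casp1 and Il18 both lie on chromosome 9 (windows chr9:5298267-5298516 and chr9:50554450-50554699, plus strand).
Mlkl: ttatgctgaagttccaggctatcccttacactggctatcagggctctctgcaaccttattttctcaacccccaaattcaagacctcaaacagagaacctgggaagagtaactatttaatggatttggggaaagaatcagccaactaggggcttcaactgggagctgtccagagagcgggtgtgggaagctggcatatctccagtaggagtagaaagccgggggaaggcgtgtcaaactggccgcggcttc
Casp1: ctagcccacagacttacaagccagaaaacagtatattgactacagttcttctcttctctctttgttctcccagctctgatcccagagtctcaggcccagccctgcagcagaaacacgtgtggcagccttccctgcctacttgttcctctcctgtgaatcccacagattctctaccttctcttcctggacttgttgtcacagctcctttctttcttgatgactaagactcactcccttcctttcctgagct
Il18: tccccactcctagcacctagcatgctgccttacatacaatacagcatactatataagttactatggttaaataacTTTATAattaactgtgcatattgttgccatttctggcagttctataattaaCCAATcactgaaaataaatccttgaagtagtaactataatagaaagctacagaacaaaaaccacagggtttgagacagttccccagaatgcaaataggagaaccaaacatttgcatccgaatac

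Both strands of these windows were searched for motifs of inflammatory and core promoter factors. They were the interferon response motif (GAAA and, after 2 bases of any kind, GAAA again), held by 2.98% of 32851 RefSeq promoter windows of the same length, the STAT motif TTCNNNGAA (7.02%), the AP-1 motif TGANTCA (6.75%), the C/EBP motif TTGCNNAA (9.56%), the CCAAT box (33.8%), the TATA box TATAAA (12.4%) and the GC box GGGCGG (32.7%). The windows of Mlkl and Casp1 held none of these letters. Counted from the start, the Il18 window held a CCAAT box at position -124 and a TATA box on the other strand at position -175. Among the other members, 1 of the Ripk1 windows held 2 STAT motifs, at positions -108 and -11, and the Il1b window held a TATA box at position -31. Gsdmd was not matched to a promoter entry. A match is a run of letters, not a bound site.

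**Figure D1:**
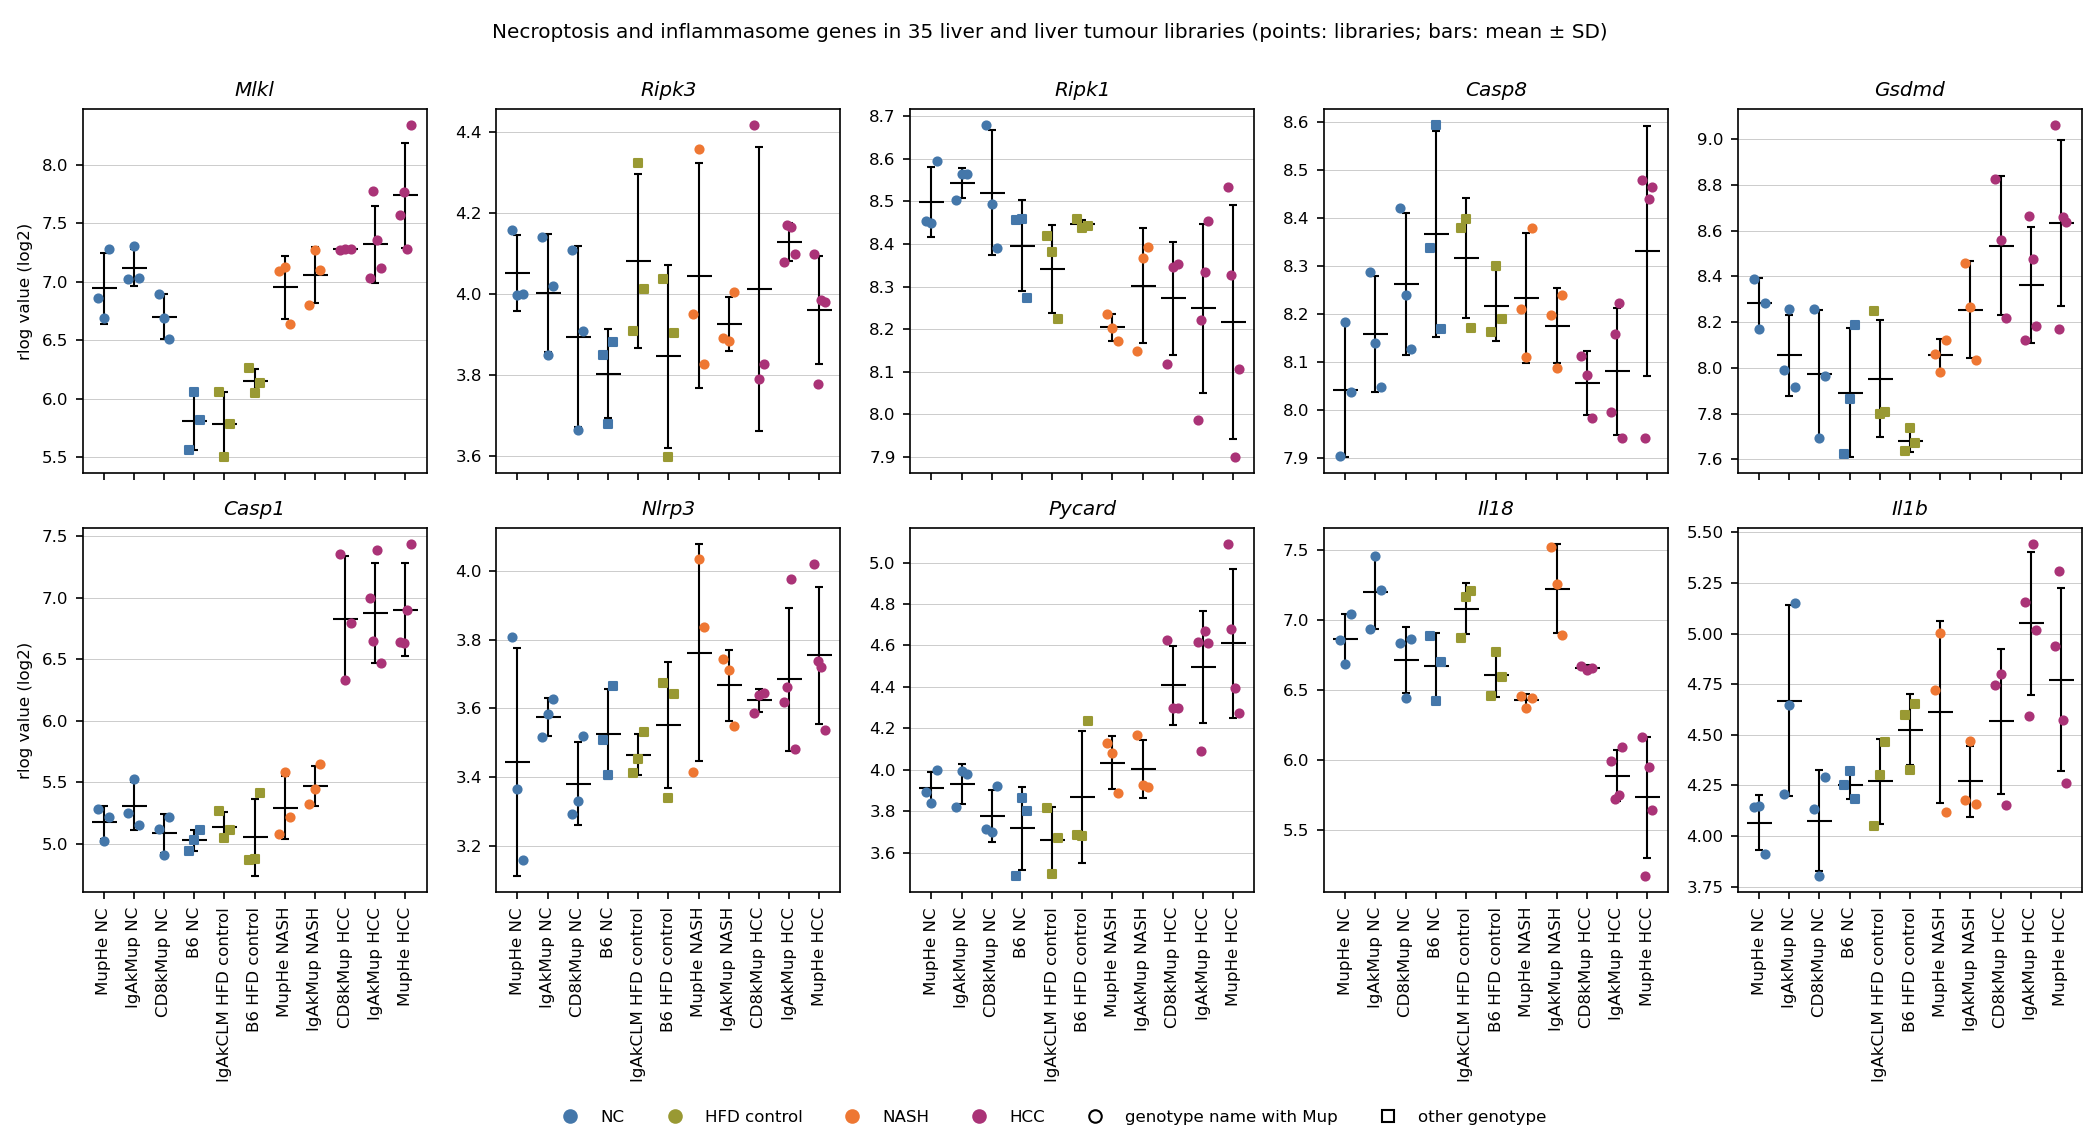
Deposited rlog values (log2 scale, vertical axis) of the 10 genes in 35 libraries, with a panel per gene and a column per group. Points are libraries and bars are the mean ± SD of the 3 or 4 libraries of a group. The 26 libraries of Mup genotypes lie above the 9 others for Mlkl, and the 11 tumours lie above the 24 other libraries for Casp1.

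In healthy NC livers, Mlkl was the member that differed between the Mup genotypes and B6. It stood at 6.86, 6.69 and 7.28 in MupHe NC, at 7.02, 7.31 and 7.03 in IgAkMup NC and at 6.90, 6.69 and 6.51 in CD8kMup NC, against 5.56, 6.05 and 5.82 in B6 NC. All 9 libraries of the Mup genotypes lay above all 3 B6 libraries. The mean of the 3 Mup groups was 1.11 ± 0.18 above B6 (adjusted p = 0.00165). In this comparison 0.203% of the kept genes were called, 25 in number with 21 of them higher, and by size of the rise Mlkl was number 13 of those 21.

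Taken by genotype, the Mlkl difference from B6 on NC was 1.13 ± 0.22 in MupHe (adjusted p = 0.043), 1.31 ± 0.22 in IgAkMup (adjusted p = 0.00262) and 0.89 ± 0.22 in CD8kMup (adjusted p = 0.156), where 0.0486%, 0.122% and 0.073% of the kept genes were called. The CD8kMup value did not pass the test, and whether the genotypes differ from each other was not tested. These calls rest on few B6 libraries. Without B6 NC 1, which had the lowest Mlkl value on NC, the adjusted p was 0.0629 for the 3 genotypes together and 0.0508 for IgAkMup, and the MupHe call ended when MupHe NC 1, MupHe NC 3, B6 NC 1 or B6 NC 3 was left out and under quantile normalization (adjusted p = 0.0766), among 6 alternatives that ended it.

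The other 3 necroptosis members did not differ on NC. Ripk3, the kinase that activates MLKL, spanned 3.66 to 4.16 over the 9 Mup libraries, against 3.68 to 3.88 in B6 NC, a difference of 0.18 ± 0.13 (adjusted p = 0.803). For Ripk1, the upstream kinase, the difference was 0.13 ± 0.10 (adjusted p = 0.835), and for Casp8, the brake, it was -0.21 ± 0.11 (adjusted p = 0.617). The 6 inflammasome members had differences between -0.06 ± 0.13 (Nlrp3) and 0.26 ± 0.16 (Il18), none of them called. Over the 10 members the median difference was 0.16, beside -0.003 over all kept genes.

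Mlkl values of the Mup genotypes and of the other livers did not overlap, although only NC holds both at the same stage. Over NC, NASH and HCC together, the 26 libraries of Mup genotypes ran from 6.51 to 8.34 with a median of 7.12, and the 9 libraries of B6 and IgAkCLM ran from 5.50 to 6.26 with a median of 6.05. The lowest Mup value, in CD8kMup NC, was 0.25 above the highest of the other 9, in B6 HFD control. Mlkl was 1 of 12 kept genes (0.0973%) whose Mup libraries all lay above the others, and 2 genes (0.0162%) had them all below. By group mean, Mlkl ran from 7.74 in MupHe HCC down to 6.70 in CD8kMup NC, then 6.15 in B6 HFD control, 5.81 in B6 NC and 5.78 in IgAkCLM HFD control. The step between CD8kMup NC and B6 HFD control was the only one in that order at which neighbouring groups did not overlap.

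On the high-fat diet, Mlkl was higher in NASH than in HFD control livers. It stood at 7.09, 7.13 and 6.64 in MupHe NASH and at 6.80, 7.27 and 7.10 in IgAkMup NASH, against 6.06, 5.50 and 5.78 in IgAkCLM HFD control and 6.26, 6.05 and 6.13 in B6 HFD control. No NASH library overlapped a control. The difference was 1.04 ± 0.15 (adjusted p = 0.000212), in a comparison that called 1.32% of the kept genes, and no other member was called. Within the Tri N tag it was 1.17 ± 0.22 (adjusted p = 0.00598; 0.559% of genes called), and within SS N 0.91 ± 0.22 (adjusted p = 0.0706; 0.251% called). The Tri N call ended when any of MupHe NASH 1, MupHe NASH 2 and IgAkCLM HFD control 2 was left out, with adjusted p up to 0.0739.

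Within a Mup genotype, Mlkl did not differ detectably between NASH and NC. The difference was 0.01 ± 0.22 in MupHe (95% confidence interval -0.43 to 0.45) and -0.06 ± 0.22 in IgAkMup (-0.51 to 0.38). The 1.04 by which NASH exceeded the HFD controls (0.73 to 1.35) has another reference group and was not tested against these differences. The MupHe and IgAkMup comparisons of NASH with NC called 1.93% and 12.9% of the kept genes and none of the 10 members. Between HFD control and NC livers of B6, Mlkl stood 0.34 ± 0.22 higher (adjusted p = 0.281), and none of the 10 members passed where 20.6% of the kept genes did. The tag differs between those 2 B6 groups, and only 285 genes in place of 2538 were called when IgAkCLM HFD control, which shares the Tri part of the tag with B6 NC, took the place of B6 HFD control. That exchange changes the genotype as well as the tag, and which of them moves the count cannot be told apart.

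In tumours 5 of the 10 members were higher and 1 was lower than in NASH when MupHe and IgAkMup were averaged, in a comparison that called 48.4% of the kept genes. By genotype, 4 members rose and 1 fell in MupHe HCC against NASH, where 30.7% of the kept genes were called, and 3 rose and 1 fell in IgAkMup HCC against NASH, where 43.8% were. Against NC, 4 rose and 1 fell in MupHe HCC (40.1% of genes called), 2 rose and 2 fell in IgAkMup HCC (45% called), and 4 rose and none fell in CD8kMup HCC (33.8% called). These shares of the members lie near those of all kept genes, so the members are described one by one.

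Mlkl rose further in tumours of MupHe and CD8kMup and not detectably in those of IgAkMup. MupHe HCC stood at 7.57, 7.77, 7.28 and 8.34, against 7.09, 7.13 and 6.64 in MupHe NASH, with no overlap and a difference of 0.79 ± 0.20 (adjusted p = 0.00408). IgAkMup HCC stood at 7.03, 7.77, 7.35 and 7.12, against 6.80, 7.27 and 7.10 in IgAkMup NASH, which overlap, and the difference was 0.26 ± 0.20 (adjusted p = 0.301). The MupHe and IgAkMup steps did not differ by test (-0.53 ± 0.29, adjusted p = 0.248). CD8kMup HCC stood at 7.27, 7.28 and 7.28, against 6.90, 6.69 and 6.51 in CD8kMup NC, and the difference of 0.58 ± 0.22 passed narrowly (adjusted p = 0.0387). It no longer passed when any 1 of these 6 libraries other than CD8kMup NC 1 was left out, and the MupHe call ended when only MupHe HCC and MupHe NASH entered the model (adjusted p = 0.0872).

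Ripk3, Ripk1 and Casp8 changed little in tumours. Ripk3 spanned 3.60 to 4.42 over all 35 libraries and was called in no comparison. Ripk1, between 7.90 and 8.68, was called once, in IgAkMup HCC, which stood at 7.99, 8.22, 8.33 and 8.45 against 8.50, 8.56 and 8.56 in IgAkMup NC (-0.30 ± 0.12, adjusted p = 0.0396). That call ended under 8 alternatives, among them leaving out IgAkMup HCC 5, IgAkMup HCC 7 or any 1 of the 3 IgAkMup NC libraries. Casp8, between 7.90 and 8.59, was not called. In MupHe HCC it stood at 8.48, 7.94, 8.44 and 8.46, with the low value in MupHe HCC 3, against 7.90, 8.18 and 8.04 in MupHe NC. The Casp8 difference between these groups was 0.29 ± 0.12 (adjusted p = 0.0547), and 0.42 ± 0.11 without MupHe HCC 3 (adjusted p = 0.00323).

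Genes around the necroptosis core were taken from a list of 25 triggers and brakes, of which 24 passed the filter and Tnf did not. On NC none differed between Mup genotypes and B6. In NASH against HFD control, where 1.32% of the kept genes were called, 2 were higher, Zbp1 and Tlr3, both of them sensors of nucleic acid that can engage RIPK3. Zbp1 stood at 7.21, 7.34 and 6.98 in MupHe NASH and 6.93, 7.32 and 7.12 in IgAkMup NASH, against 6.00, 5.65 and 5.33 in IgAkCLM HFD control and 5.50, 5.94 and 5.90 in B6 HFD control. The groups did not overlap, and the difference was 1.43 ± 0.20 (adjusted p = 8.94e-05). On NC the Mup genotypes and B6 overlapped in Zbp1, with 5.78 to 7.12 in the 9 Mup libraries and 5.57 to 6.29 in B6. Tlr3 was 0.49 ± 0.12 higher in NASH than in HFD control (adjusted p = 0.0351). Its means were 6.59 in MupHe NASH and 6.39 in IgAkMup NASH, against 6.44 in MupHe NC and 6.58 in IgAkMup NC, neither step called, while in B6 it was lower in HFD control, at 5.78, than in NC, at 6.43 (-0.65 ± 0.17, adjusted p = 0.00867).

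In the tumour steps, the same list had 5 members higher and 1 lower in MupHe HCC against NASH, 3 and 3 in IgAkMup HCC against NASH, and 5 and 1 in CD8kMup HCC against NC. Of the 24 genes, 6 were thus called in each step, a share no higher than the 30.7%, 43.8% and 33.8% of all kept genes. Medians were 0.04, 0.04 and 0.07, beside 0.004, 0.04 and 0.01 over all kept genes. Tnfaip3, which encodes the ubiquitin editor A20 that restrains TNF signalling, rose by 1.16 ± 0.27, 1.29 ± 0.27 and 1.01 ± 0.28 in these 3 steps. Traf2, an adaptor of the TNF receptor complex, rose by 0.59 ± 0.12, 0.39 ± 0.12 and 0.89 ± 0.13. Map3k7, the kinase TAK1, fell, with differences of -0.64 ± 0.11, -0.34 ± 0.11 and -0.45 ± 0.12. Cflar, which encodes the caspase-8 partner cFLIP, and Fadd, the adaptor of caspase-8, were called in none of them. Zbp1 stood 0.88 ± 0.28 higher in CD8kMup HCC than in CD8kMup NC (adjusted p = 0.0149), and it was not called in MupHe or IgAkMup HCC against NASH (-0.13 ± 0.26 in each). These steps start from unlike stages. Tumour means of Zbp1 were 7.045 in MupHe, 6.988 in IgAkMup and 7.021 in CD8kMup, and the NC means were 6.567, 6.611 and 6.141.

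**Figure D2:**
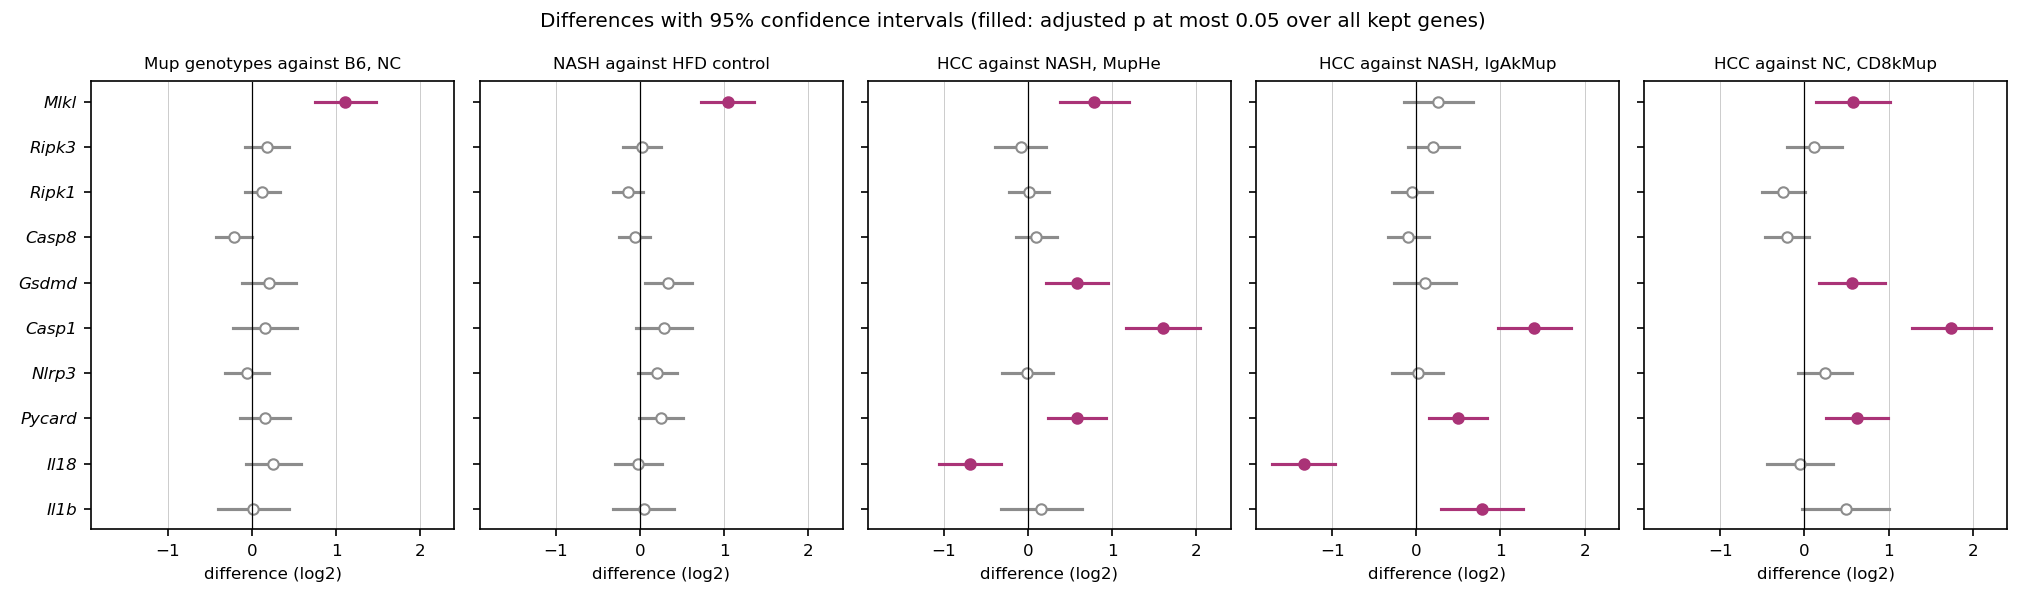
Differences (log2, horizontal axis) of the 10 genes, with a panel per comparison. Points are limma estimates, lines are 95% confidence intervals, and filled points passed an adjusted p of 0.05 over all kept genes. Mlkl at 1.11 is the only filled point of the NC panel, and Casp1 lies between 1.40 and 1.74 in the tumour panels.

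Casp1, the protease of the inflammasome, was higher in every tumour than in any other library. It stood at 6.64, 6.63, 6.90 and 7.43 in MupHe HCC, against 5.08, 5.58 and 5.22 in MupHe NASH. IgAkMup HCC had 6.99, 6.65, 7.38 and 6.47, against 5.33, 5.44 and 5.65 in IgAkMup NASH, and CD8kMup HCC had 7.35, 6.33 and 6.80, against 5.12, 4.91 and 5.22 in CD8kMup NC. The 11 tumours ran from 6.33 to 7.43 and the 24 other libraries from 4.87 to 5.65, a separation shared by 2.62% of the kept genes. Means of the 8 groups without tumours lay between 5.03 (B6 NC) and 5.47 (IgAkMup NASH), and neighbours in their order overlapped.

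The Casp1 rise was 1.61 ± 0.21 in MupHe HCC against NASH (adjusted p = 2.62e-06), 1.40 ± 0.21 in IgAkMup HCC against NASH (adjusted p = 8.35e-06) and 1.74 ± 0.23 in CD8kMup HCC against NC (adjusted p = 2.99e-06). Of the kept genes, 16% were called higher in the first of these comparisons, 23.2% in the second and 16.8% in the third. Casp1 kept its call in all 3 under every alternative run. It did not differ by test between the tumours of the 3 genotypes, with differences of -0.03 ± 0.20 between IgAkMup and MupHe (95% interval -0.43 to 0.38), -0.07 ± 0.21 between CD8kMup and MupHe (-0.51 to 0.36) and -0.05 ± 0.21 between CD8kMup and IgAkMup (-0.49 to 0.39). Between IgAkMup and MupHe tumours 10.1% of the kept genes were called and none of the 10 members.

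Casp1 lies on chromosome 9 from 5298517 to 5307265 (GRCm38, plus strand). Within 500 kb of it 2 other genes of the annotation have values in the table, and both are inflammatory caspase genes. Casp4 starts 1563 bases after the end of Casp1, and Casp12 starts at 5345430. Casp4, which encodes the caspase that senses bacterial lipopolysaccharide inside mouse cells, rose by 1.73 ± 0.16 in MupHe HCC against NASH, by 1.58 ± 0.16 in IgAkMup HCC against NASH and by 1.65 ± 0.17 in CD8kMup HCC against NC. Casp12 rose by 2.80 ± 0.23, 2.28 ± 0.23 and 2.49 ± 0.24 in the same steps. Casp4 was also the kept gene most like Casp1 over the 11 group means (r = 0.996) and followed it over the 35 libraries (r = 0.951), where tumours and other livers form separate clusters. The 3 genes are related in sequence, and how reads that match more than 1 of them were counted is not stated in the labels or headers.

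Pycard, the adaptor ASC, rose with Casp1 in each tumour step. MupHe HCC stood at 5.09, 4.68, 4.40 and 4.27, against 4.13, 4.08 and 3.89 in MupHe NASH (0.58 ± 0.17, adjusted p = 0.0104). IgAkMup HCC stood at 4.62, 4.09, 4.67 and 4.61, against 4.17, 3.93 and 3.92 in IgAkMup NASH (0.49 ± 0.17, adjusted p = 0.019), and the low value of IgAkMup HCC 7 overlapped NASH. CD8kMup HCC stood at 4.63, 4.30 and 4.30, against 3.71, 3.70 and 3.92 in CD8kMup NC (0.63 ± 0.18, adjusted p = 0.00807). The IgAkMup call ended without the 3 tumours that stood off on the second component (0.38 ± 0.20, adjusted p = 0.146), under quantile normalization (adjusted p = 0.163) and when any of IgAkMup HCC 8, IgAkMup NASH 3 and IgAkMup NASH 6 was left out. Both calls against NASH ended when only their own groups entered the model (adjusted p = 0.117 in MupHe and 0.0764 in IgAkMup). The MupHe call also ended without MupHe NASH 6, and the CD8kMup call without CD8kMup HCC 3 (adjusted p = 0.0576).

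Nlrp3, the sensor, did not follow its adaptor and protease. It spanned 3.16 to 4.04 over all 35 libraries, and both ends of that range were outside the tumours, in MupHe NC 3 and MupHe NASH 2. Its difference was -0.01 ± 0.15 in MupHe HCC against NASH (95% interval -0.31 to 0.29), 0.02 ± 0.15 in IgAkMup HCC against NASH (-0.28 to 0.32) and 0.24 ± 0.16 in CD8kMup HCC against NC (adjusted p = 0.242). At such low values rlog shrinks differences, so a change of this gene can be understated.

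Gsdmd, the pore-forming target of caspase-1, was higher in MupHe tumours than in NASH and in CD8kMup tumours than in NC. It stood at 9.06, 8.17, 8.66 and 8.64 in MupHe HCC, against 8.06, 7.98 and 8.12 in MupHe NASH (0.58 ± 0.18, adjusted p = 0.0157). MupHe NC had a higher mean, 8.28, than MupHe NASH, at 8.06, and its libraries (8.17 to 8.39) overlapped MupHe HCC. Gsdmd was not among the 4 members called higher in MupHe HCC against NC. CD8kMup HCC stood at 8.83, 8.56 and 8.22, against 8.26, 7.69 and 7.96 in CD8kMup NC (0.56 ± 0.19, adjusted p = 0.0243), and these overlap. IgAkMup HCC, at 8.12, 8.67, 8.48 and 8.18, overlapped IgAkMup NASH, at 8.46, 8.27 and 8.04 (0.11 ± 0.18, adjusted p = 0.653), and the MupHe and IgAkMup steps did not differ by test (-0.47 ± 0.25, adjusted p = 0.246). The MupHe call ended without MupHe HCC 2 or MupHe NASH 2, with only its own groups in the model, and when IgAkMup NASH, of the SS tag like the tumours, replaced MupHe NASH (0.38 ± 0.18, adjusted p = 0.115). The CD8kMup call ended when CD8kMup HCC 3, CD8kMup HCC 4, CD8kMup NC 2 or CD8kMup NC 3 was left out, with adjusted p up to 0.15.

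Other inflammasome genes were taken from a list of 20 sensors and regulators, of which 13 passed the filter. None differed between the Mup genotypes and B6 on NC or between NASH and HFD control. In MupHe HCC against NASH 5 rose and 1 fell, in IgAkMup HCC against NASH 6 rose and 3 fell, and in CD8kMup HCC against NC 5 rose and 1 fell. Beside these counts of 13 stand the 30.7%, 43.8% and 33.8% of all kept genes called in these steps. Besides Casp4 and Casp12, the rises held Naip2, a receptor for bacterial secretion proteins (1.70 ± 0.26, 1.31 ± 0.26 and 1.72 ± 0.28 in these steps), and Panx1, a membrane channel for ATP (1.94 ± 0.29, 1.30 ± 0.29 and 1.35 ± 0.31). Nlrp6, a sensor of liver and gut epithelium, fell, with differences of -1.14 ± 0.18, -0.65 ± 0.18 and -1.32 ± 0.19. Its mean was also lower without tumours, in B6 HFD control (9.382) than in B6 NC (10.424) and in IgAkMup NASH (9.725) than in IgAkMup NC (10.361). MupHe NASH stood at 10.19 and MupHe NC at 10.509. In the 3 tumour steps P2rx7, the ATP receptor that triggers NLRP3, rose by 0.80 ± 0.24 in MupHe and by 1.36 ± 0.24 in IgAkMup and stood at 0.41 ± 0.26 in CD8kMup (adjusted p = 0.235). Of 8 gasdermin and membrane rupture genes 4 passed the filter, and Gsdme, the gasdermin cut by caspase-3, rose in the IgAkMup step (0.52 ± 0.19, adjusted p = 0.025). The IgAkMup and MupHe steps of Gsdme did not differ by test (0.24 ± 0.26, adjusted p = 0.597).

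**Figure D3:**
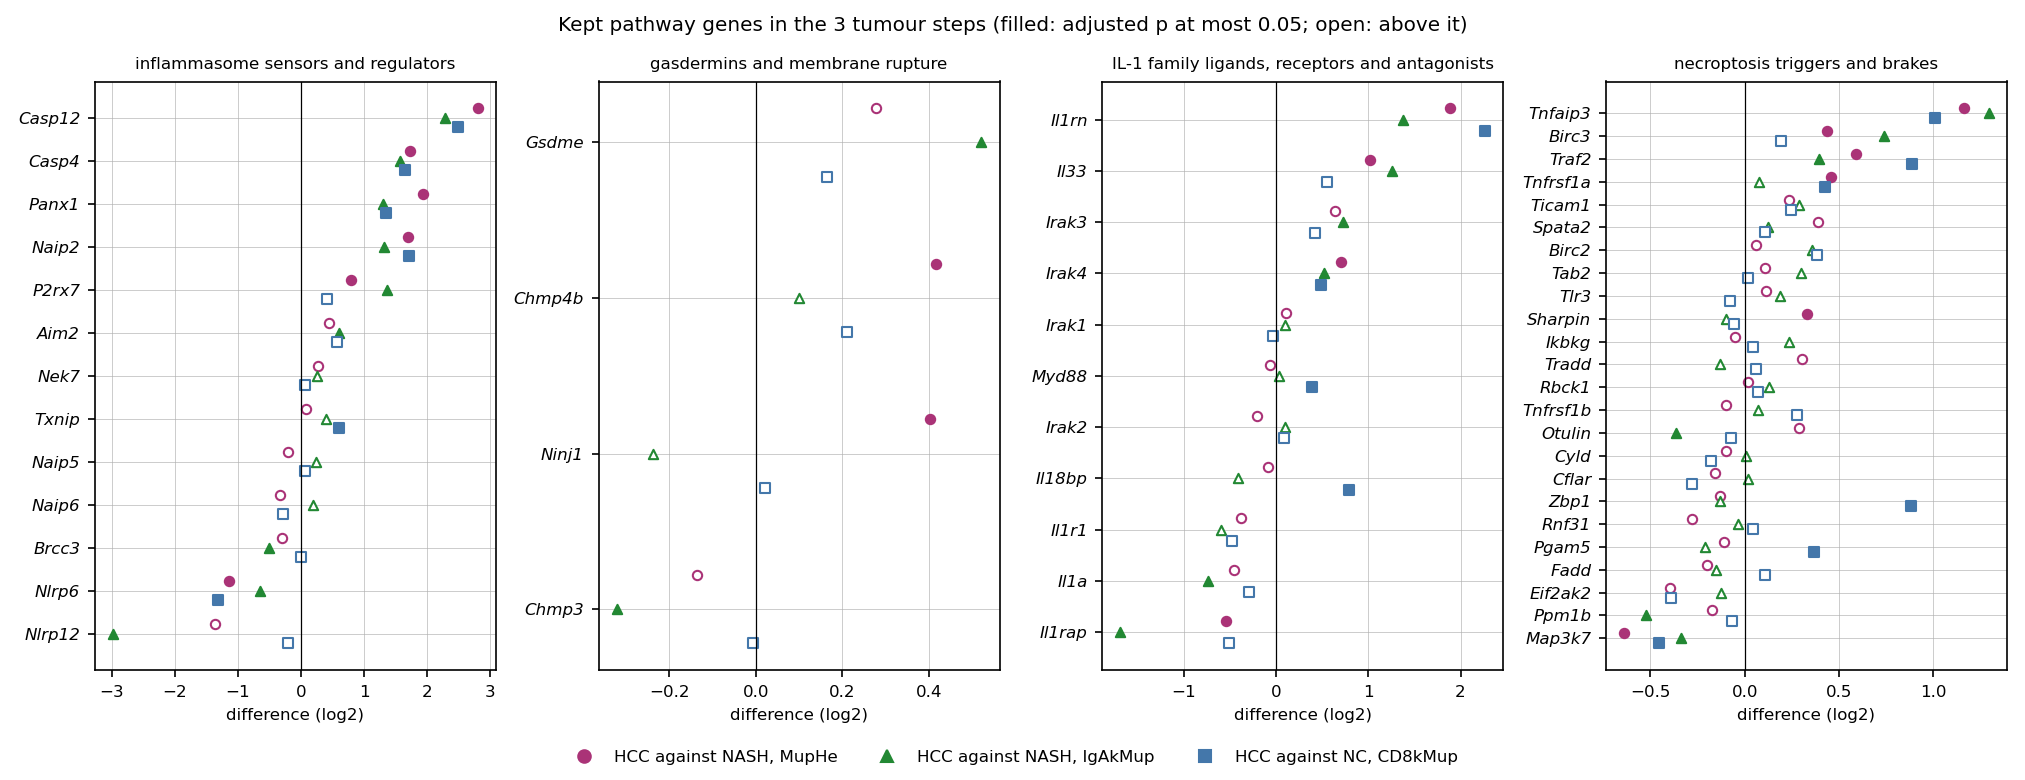
Differences (log2, horizontal axis) of the kept genes of the pathway lists in 3 tumour steps, HCC against NASH in MupHe and in IgAkMup and HCC against NC in CD8kMup. Each mark is a gene in a step, and filled marks passed an adjusted p of 0.05. Casp12 (2.28 to 2.80), Casp4 (1.58 to 1.73) and Il1rn (1.38 to 2.27) lie far to the right in all 3 steps.

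Il18, which encodes a cytokine activated by caspase-1, moved against Casp1 in tumours of MupHe and IgAkMup. MupHe HCC stood at 6.16, 5.17, 5.95 and 5.64, against 6.46, 6.37 and 6.44 in MupHe NASH, a difference of -0.69 ± 0.18 (adjusted p = 0.00458). IgAkMup HCC stood at 5.99, 5.72, 5.75 and 6.09, against 7.53, 7.26 and 6.90 in IgAkMup NASH, a difference of -1.34 ± 0.18 (adjusted p = 1.61e-06). In both genotypes every tumour lay below every NASH liver. Of the kept genes, 14.7% fell in the MupHe step and 20.7% in the IgAkMup step. The 2 steps did not differ by test (-0.64 ± 0.26, adjusted p = 0.104, 10% of genes called), although they did without MupHe HCC 3, the lowest tumour (-0.83 ± 0.23, adjusted p = 0.0119), without the 3 tumours of the second component (-0.99 ± 0.25, adjusted p = 0.00758), or without IgAkMup NASH 6. The MupHe fall ended as a call when only its own groups entered the model (adjusted p = 0.0932).

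CD8kMup tumours kept an Il18 level near that of CD8kMup NC livers. They stood at 6.67, 6.64 and 6.66, against 6.84, 6.44 and 6.86 in CD8kMup NC, a difference of -0.05 ± 0.19 (95% interval -0.45 to 0.34, adjusted p = 0.856), in a comparison in which 17% of the kept genes fell. All 3 lay above all 8 tumours of MupHe and IgAkMup, which ran from 5.17 to 6.16. The share of kept genes that separate these tumours was not counted. Il18 was 0.77 ± 0.18 higher in CD8kMup HCC than in IgAkMup HCC (adjusted p = 0.00359, with 22.9% of genes called) and 0.93 ± 0.18 higher than in MupHe HCC (adjusted p = 0.0122, with 1.32% called), and it was the member called in each. The call against IgAkMup held under every alternative run, with adjusted p up to 0.0371. The call against MupHe ended with array weights (adjusted p = 0.102), with only those groups in the model (0.836) and without CD8kMup HCC 4 or CD8kMup HCC 8 (0.0991 and 0.0633).

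The step from NC to HCC, which can be set side by side in all 3 genotypes, was -1.13 ± 0.18 for Il18 in MupHe, -1.32 ± 0.18 in IgAkMup and -0.05 ± 0.19 in CD8kMup. The CD8kMup and IgAkMup steps differed by 1.26 ± 0.26 (adjusted p = 0.0161, 2.35% of genes called), a call that ended without CD8kMup NC 2 or IgAkMup NC 2 (adjusted p = 0.0596 and 0.0525). The CD8kMup and MupHe steps differed by 1.08 ± 0.26, which did not pass (adjusted p = 0.142, 0.0486% of genes called). Both differences of steps were added after the values had been seen.

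Before the tumour stage Il18 was called in no comparison. By group mean it ran from 7.23 in IgAkMup NASH and 7.20 in IgAkMup NC through 7.08 in IgAkCLM HFD control, 6.86 in MupHe NC, 6.71 in CD8kMup NC, 6.67 in B6 NC and 6.61 in B6 HFD control to 6.42 in MupHe NASH. Neighbours in this order overlapped, and the groups whose genotype name holds IgAk had the highest means in it. MupHe NASH, at 6.46, 6.37 and 6.44, lay below IgAkCLM HFD control, at 6.87, 7.17 and 7.21 (-0.66 ± 0.19, adjusted p = 0.132), while IgAkMup NASH lay above B6 HFD control, at 6.46, 6.77 and 6.59 (0.62 ± 0.19, adjusted p = 0.24). Neither passed, and their difference of -1.28 ± 0.27 did not pass over all genes (adjusted p = 0.0831, 0.0567% of genes called). Both comparisons set a genotype with IgAk in its name against a genotype without it, on opposite sides. Stage and genotype therefore cannot be told apart in them.

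Il1b, the other cytokine cleaved by caspase-1, varied widely between libraries of a group. IgAkMup HCC stood at 5.16, 4.59, 5.44 and 5.02, against 4.18, 4.47 and 4.16 in IgAkMup NASH, and rose by 0.78 ± 0.24 (adjusted p = 0.00874). MupHe HCC, at 4.94, 5.31, 4.57 and 4.26, overlapped MupHe NASH, at 4.72, 5.00 and 4.12 (0.16 ± 0.24, adjusted p = 0.65). The IgAkMup and MupHe steps from NASH did not differ by test (0.62 ± 0.33, adjusted p = 0.239). Against NC, MupHe HCC was higher by 0.70 ± 0.24 (adjusted p = 0.0186) and IgAkMup HCC at 0.38 ± 0.24 (adjusted p = 0.19), or 0.63 ± 0.25 (adjusted p = 0.0542) without IgAkMup NC 3, the highest of its group at 5.15. The MupHe call against NC ended without MupHe HCC 3 or MupHe NC 3, among 5 alternatives, with adjusted p up to 0.117. CD8kMup HCC, at 4.75, 4.80 and 4.16, overlapped CD8kMup NC, at 4.13, 3.80 and 4.29 (0.49 ± 0.25, adjusted p = 0.134).

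Receptors and antagonists of these cytokines were taken from a list of 16 IL-1 family genes, of which 11 passed the filter. None differed on NC or in NASH against HFD control, and 3 rose and 1 fell in the MupHe tumour step, 4 and 2 in the IgAkMup step and 4 and none in the CD8kMup step. Beside these counts of 11, the steps called 30.7%, 43.8% and 33.8% of all kept genes. In HFD control against NC of B6, without tumours, 2 rose and none fell, where 20.6% of all kept genes were called. Il1rn, which encodes the secreted IL-1 receptor antagonist, stood at 7.74, 6.50, 8.75 and 8.78 in MupHe HCC, against 5.90, 6.43 and 5.83 in MupHe NASH. It rose by 1.89 ± 0.45 there, by 1.38 ± 0.45 in IgAkMup HCC against NASH and by 2.27 ± 0.48 in CD8kMup HCC against NC. IgAkMup HCC stood at 7.72, 8.72, 8.83 and 6.58, against 6.74, 6.52 and 6.49 in IgAkMup NASH, so that IgAkMup HCC 9 overlapped NASH. Il18bp, the soluble inhibitor of IL-18, was 0.79 ± 0.24 higher in CD8kMup HCC than in CD8kMup NC (adjusted p = 0.0135). It was not called in the MupHe or IgAkMup steps from NASH (-0.08 ± 0.23 and -0.41 ± 0.23). In B6 livers the Il18bp mean was 7.704 in HFD control and 6.918 in NC, and the Il1rn mean 6.147 and 4.886. Il1a, the other IL-1 ligand, fell in the IgAkMup step (-0.74 ± 0.23). Il1rap, the receptor subunit shared by IL-1 and IL-33, fell in the MupHe step (-0.54 ± 0.21) and in the IgAkMup step (-1.68 ± 0.21).

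Cell type markers moved in the same tumours. Of 10 monocyte and macrophage markers, all past the filter, 7 rose in the MupHe tumour step, 7 in the IgAkMup step and 8 in the CD8kMup step, and none fell. Of all kept genes, 16%, 23.2% and 16.8% rose in these steps. Their summed log2 level was 68.19 to 79.28 in MupHe HCC, 70.29 to 77.89 in IgAkMup HCC and 68.05 to 73.01 in CD8kMup HCC, against 60.57 to 65.85 in MupHe NASH, 62.67 to 64.23 in IgAkMup NASH and 59.12 to 59.53 in CD8kMup NC. None of the 10 stood at 0 in any library. In these 3 steps the sum was higher along with Casp1 and Pycard. In B6 it was also higher in HFD control (60.12 to 63.66) than in NC (54.76 to 57.52), with 4 of the 10 markers called higher, where the Casp1 difference was 0.03 ± 0.23 (adjusted p = 0.954). The part of these cells in the tumour result was not tested.

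Of 6 Kupffer cell markers, which mark the resident macrophages of liver, 5 fell in the MupHe step, 6 in the IgAkMup step and 2, Timd4 and Marco, in the CD8kMup step. Of all kept genes, 14.7%, 20.7% and 17% fell in these steps. Their summed level was 29.49 to 44.31 in MupHe HCC, 26.32 to 40.19 in IgAkMup HCC and 44.95 to 46.29 in CD8kMup HCC, against 47.62 to 51.82 in MupHe NASH, 48.50 to 49.44 in IgAkMup NASH and 46.87 to 47.25 in CD8kMup NC. Like Il18, it was highest among tumours in CD8kMup. Within MupHe HCC the libraries had the same order in both, whereas within IgAkMup HCC the order was nearly reversed. There Il18 ran from library 9 (6.09) through 5 (5.99) and 8 (5.75) down to 7 (5.72). The sum was highest in library 8 (40.19), followed by 7, 5 and 9 (26.32). In B6 the sum was higher in HFD control (48.78 to 51.15) than in NC (43.55 to 45.99), where the Il18 difference was -0.06 ± 0.19 (adjusted p = 0.856). Clec4f, a lectin of Kupffer cells, was 2.85 ± 0.62 higher in CD8kMup HCC than in IgAkMup HCC (adjusted p = 0.00214). No marker of the list stood at 0 in any library, and the part of these cells in the Il18 result was not tested. Of 8 hepatocyte markers 4 fell in each of the 3 steps and none rose, beside the same shares of all kept genes.

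**Figure D4:**
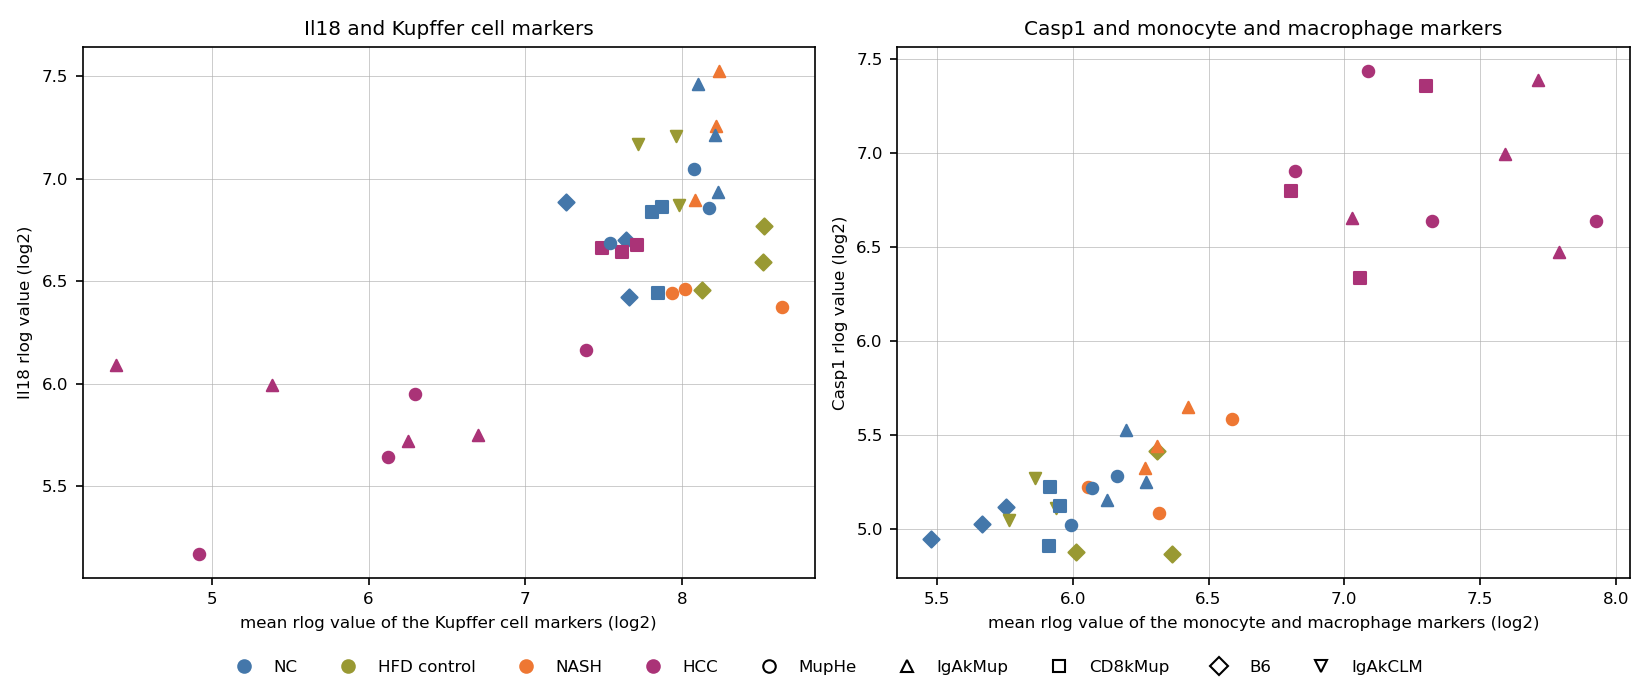
Il18 (rlog value, log2) against the mean of 6 Kupffer cell markers, and Casp1 against the mean of 10 monocyte and macrophage markers, in 35 libraries. Each point is a library, with its stage and genotype by colour and shape. The 3 CD8kMup tumours lie at Il18 values of 6.64 to 6.67 and Kupffer means of 7.49 to 7.72, and the other 8 tumours at 5.17 to 6.16 and 4.39 to 7.39.

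Over the 11 group means, the kept genes most like each member were named by the 3 highest values of r, as a description of the same libraries. For Mlkl they were Car2 (0.97), Ttc39a (0.949) and Smpd3 (0.944), with r over the 35 libraries of 0.614, 0.866 and 0.881. For Pycard they were S1pr2 and Sirpa (both 0.99) and Rab7b (0.989), and for Casp1 Spire2 (0.995) and Arhgap22 (0.993) followed Casp4. For Il18 they were Plpp1 (0.944), Cfap36 (0.941) and Aqp1 (0.932), with r over libraries of 0.701, 0.659 and 0.544. Nlrp3 was most like Tor3a, Rsad2 and Ifit3 (0.917, 0.913 and 0.91). Groups with and without tumours form separate clusters for Casp1 and Pycard, so that their r mostly reads that split.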

How the data were processed

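PolyA RNA from mouse liver and liver tumours was sequenced after library preparation from 100 ng of RNA with the TruSeq Stranded mRNA kit, per the labels' protocols. The authors deposited regularized log2 (rlog) values per gene for the whole series, and the values used here run from -2.3886 to 20.931. The submitters' processing notes name STAR, Cuffdiff, HOMER, DESeq2 and the mm10 genome, with no versions. The rlog transform shrinks differences of genes with few reads, so fold changes of low genes are understated. Counts and depth are not given, so no interval for counting error could be had.

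Of 41 columns, 12 were matched to a sample and 23 to a group by name. The other 6 could belong to more than one group and were not used. Groups were tested with limma 3.58.1 in R 4.3.3, with 1 model over 11 groups and 35 libraries, a two-sided empirical Bayes test with an intensity trend and Benjamini-Hochberg adjusted p-values over the 12337 genes with a mean of at least 3, called at 0.05. The procedure was tested on simulated data. Alternatives were no filter, a mean of at least 5, median centring, quantile normalization, no trend, array weights, only the compared groups, a replicate block, groups exchanged by tag, and leaving out each library. All 10 members are named in every comparison; of other lists, genes past the threshold among the 3 largest rises or falls, with Zbp1, Casp4, Tnf, Il1a, Il1rn, Il18bp, Cflar, Fadd and Gsdme at any value. Casp12 as a neighbour of Casp1, Tlr3, P2rx7 and Clec4f were named after their values were seen where they fall outside this rule. The members, lists and motifs were chosen with earlier results of these data known, and 2 comparisons were added after the values had been seen. Gene positions and overlaps are from GENCODE M21 (GRCm38), and promoters are from RefSeq (GRCm38.p6, 9 of 10 members matched).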

Additional observations from a re-analysis of the deposited data

Results flagged for a closer look

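The lowest or highest library stood apart from the others of its group in 2 of the 20 tests that could be made in the groups of 4 libraries, where chance gives about 1 in 20. Casp8 stood at 7.94 in MupHe HCC 3, and the nearest other MupHe tumour was at 8.44. Without that library the Casp8 difference between MupHe HCC and MupHe NC was 0.42 ± 0.11 (adjusted p = 0.00323, limma). Pycard stood at 4.09 in IgAkMup HCC 7, and the nearest other IgAkMup tumour was at 4.61. Without it the Pycard difference between IgAkMup HCC and NASH was 0.63 ± 0.17 (adjusted p = 0.00337).

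The steps of Il18 were set against each other between genotypes. Its step from NC to HCC differed by 1.26 ± 0.26 between CD8kMup and IgAkMup (adjusted p = 0.0161). In the NASH steps every MupHe NASH library lay below the IgAkCLM HFD control libraries and every IgAkMup NASH library lay above the B6 HFD control libraries. That difference of steps was -1.28 ± 0.27 and did not pass over all genes (adjusted p = 0.0831). Each step lies within 1 tag. In the MupHe step only the control has a genotype name that holds IgAk, and in the IgAkMup step only the NASH group has. The difference thus sets groups without IgAk in the name against groups with it, and stage and genotype cannot be told apart. The difference of steps passed with array weights (0.00133), with only the compared groups in the model (0.0437) and without IgAkMup NASH 6 (0.0407).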

How the results depend on the processing

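Of 36 member results with a call, 16 kept it in every alternative run, and of 194 without a call, 169 had none in any. The Mlkl rise in NASH against HFD control, the Casp1 rise in all tumour steps and the Il18 difference between CD8kMup and IgAkMup tumours kept their calls throughout. With only the compared groups in the model, the count of members called was 2 in NASH against HFD control, 2 in MupHe NASH against IgAkCLM HFD control, 1 in IgAkMup NASH against B6 HFD control, 2 in NASH against NC in MupHe, 1 in HCC against NASH in MupHe, 3 in HCC against NC in MupHe, 0 in CD8kMup against MupHe HCC and 1 in the difference of the NASH steps. With array weights it was 1 in CD8kMup against B6 on NC, 3 in NASH against HFD control and in each of its tags, 3 and 1 in NASH against NC in MupHe and IgAkMup, 0 in CD8kMup against MupHe HCC and 1 in the difference of the NASH steps. Quantile normalization left 0 in MupHe against B6 on NC and 2 in HCC against NC in IgAkMup. A mean of at least 5, which leaves Ripk3, Nlrp3, Pycard and Il1b without a value, gave 2 in HCC against NASH in IgAkMup and 3 in HCC against NC in MupHe. Without the 3 tumours that stood off on the second component it was 2 in CD8kMup against MupHe HCC and 1 in the difference of the HCC steps. When MupHe NASH, of the Tri tag, took the place of IgAkMup NASH, 1 member was called against IgAkMup NC, Il18, which turned to -0.78 ± 0.19 (adjusted p = 0.0381, limma). The cause of these changes was not tested.

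Leaving out 1 library gave 0 to 1 called members in the Mup genotypes, MupHe and IgAkMup against B6 on NC, in MupHe NASH against IgAkCLM HFD control, in IgAkMup against MupHe HCC, in CD8kMup against MupHe HCC and in the differences of the HCC and NASH steps, 4 to 7 in HCC against NC in MupHe and 1 to 4 in CD8kMup. The labels number the libraries alike across the NC groups. Of 18 pairs with the same number, 3 correlated over 0.1 (r from -0.21 to 0.23), beside 7 of 36 pairs with different numbers. With so few libraries per group this cannot show whether the numbers pair the samples, and the main model took no pairing. The replicate block left 0 called members in MupHe against B6 on NC and changed no other member's call. No paired analysis was possible for the other groups because their columns carry no number that the labels share.

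Counts over all genes also moved. On NC, Mup genotypes against B6 gave 25 calls, 67 with no filter, 291 with array weights and 478 with only the compared groups. In the same order MupHe gave 6, 20, 151 and 94 (3 under quantile normalization and 3 under the block), IgAkMup 15, 34, 310 and 119, and CD8kMup 9, 22, 177 and 68. With array weights and then only the compared groups, NASH against HFD control gave 2386 and 862 in place of 163, its Tri N part 1941 and 745 in place of 69, its SS N part 717 and 164 in place of 31 (13 under quantile normalization), NASH against NC 2479 and 1924 in place of 238 in MupHe and 4961 and 3608 in place of 1594 in IgAkMup (155 with the tag exchange), IgAkMup against MupHe HCC 375 and 0 in place of 1249, CD8kMup against MupHe HCC 30 and 0 in place of 163, and the difference of the NASH steps 173 and 12 in place of 7. Array weights gave 4111 in HFD control against NC in place of 2538 (285 with the tag exchange) and 6280 in HCC against NC in CD8kMup in place of 4165. Only the compared groups gave 1210 in place of 3784 and 3205 in place of 5408 in HCC against NASH of MupHe and IgAkMup, 2307 in place of 4947 and 3662 in place of 5551 against NC, 335 in place of 2831 in CD8kMup against IgAkMup HCC, and 13 in place of 1236 in the difference of the HCC steps. Without the 3 tumours that stood off, that difference gave 2128, IgAkMup against MupHe HCC gave 1993 and CD8kMup against MupHe HCC 530. The depth is unknown, and rlog shrinks differences most at low counts, which bears on Ripk3, Nlrp3, Pycard and Il1b, with means under 5.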
